A study of Homo sapiens with 96 samples.

Results

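The genes described here are the enzymes and regulators of sterol and fatty acid synthesis, measured in HaCaT keratinocyte lines and in carcinoma lines. Of 35 listed genes, 34 had a probe set of their own on the array, out of 19775 genes measured, and FADS1 had none. They fall into 17 enzymes of the sterol branch, 10 of the fatty acid branch and 7 genes of regulation and transport. Each gene was read from the probe set that was brightest on average in the HaCaT constructs, the only one for 12 members and 1 of several for 22. Sterol synthesis condenses acetyl-CoA to mevalonate, builds isoprenoids and squalene from it, and closes and trims the ring to cholesterol. Fatty acid synthesis starts from the same acetyl-CoA, which ATP citrate lyase or acetyl-CoA synthetase supply, and ends in elongation and desaturation. The SREBP transcription factors, escorted by SCAP and held in the endoplasmic reticulum by the INSIG proteins when sterols are plentiful, switch on most of these genes together, and keratinocytes use their products for membranes and for the lipids of the epidermal barrier.

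The study profiled total RNA of 96 samples, each on an Affymetrix expression array, and every value below is a log2 expression value or a difference between such values. HaCaT is a spontaneously immortalised, not transformed human keratinocyte line, and all 4 constructs were made in it with a lentiviral vector under a CMV promoter and selected in puromycin. HaCaT-Mock carried the empty vector, HaCaT-EGFR the wild-type receptor, HaCaT-HRAS an activated mutant HRAS and HaCaT-PIK3CA an activated mutant PIK3CA. Each line was cultured with PBS (11 arrays in all), with 10 nM afatinib, 100 nM gefitinib or 100 nM cetuximab (35 arrays), or transfected with scramble siRNA (12 arrays) or 1 siRNA against EGFR (siEGFR, 12 arrays). Further arrays held scramble siRNA with an inhibitor (12 arrays) or with PBS (7 arrays), and 7 arrays held SCC1, SCC25 and FaDu carcinoma cells and parental HaCaT cells. Afatinib and gefitinib are small molecules that block the kinase domain, and cetuximab is an antibody to the outer part of the receptor. A group of line and treatment had 3 arrays, except 2 for HaCaT-EGFR under PBS and for HaCaT-PIK3CA under gefitinib, 1 for scramble with each inhibitor, and 2 for scramble with PBS (1 in HaCaT-Mock). The labels do not state that replicates came from separate cultures, so the p-values cover only how far these arrays spread.

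The arrays were run in batches named J (53 arrays), E (16), M (26) and P (1), and batch was a term of the model, because batch M arrays were lower for some members and higher for others. Under PBS the third array was from batch E in HaCaT-Mock and from batch M in HaCaT-HRAS and HaCaT-PIK3CA, and the others were from batch J. The EGFR probe set of HaCaT-EGFR differed from that of HaCaT-Mock by -0.00 (SE 0.109, adjusted p = 0.998) and the HRAS probe set of HaCaT-HRAS by -0.22 (SE 0.102, adjusted p = 0.152), by limma. The sources used here do not give where these probe sets lie relative to the introduced reading frames, so neither value checks the labels, and the lines are named as labelled. DUSP6, a phosphatase that is switched on by the MAP kinase pathway, was 0.97 higher (SE 0.22, adjusted p = 0.00062) in the line labelled HaCaT-HRAS. siEGFR lowered EGFR by 1.92 on average (a change of -1.92, SE 0.0479, adjusted p = 8.13e-37). The mean of 6 keratinocyte markers was between 10.6 and 12.1 on every construct array, and the means of fibroblast, endothelial, leukocyte, melanocyte, adipocyte and sebocyte, and hepatocyte markers stayed between 4.18 and 5.38. In bulk RNA, fewer cells with a transcript and less transcript per cell cannot be told apart. Of the arrays, gefitinib replicates 1 and 2 of HaCaT-HRAS and afatinib replicate 1 of HaCaT-PIK3CA had weights of 0.0578, 0.0200 and 0.107 by limma's array weights, the lowest of the construct arrays. The counts of members under the inhibitors are also given without them. A comparison whose groups hold none of these arrays then changes only through the spread and batch terms that all arrays share. A call kept or gained there does not check the arrays compared. The 1 array of HaCaT-Mock with scramble siRNA and PBS stood apart from the other PBS arrays, with DUSP6 at 8.13, and averages over lines that hold it are given with and without it.

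The promoters of 31 of the 34 members were matched in RefSeq (GRCh38.p14) as windows of 250 bases before to 50 after each start, and ACAT2, FASN and SQLE were not matched. They are shown because many members were higher in HaCaT-HRAS and because the SREBP proteins are known to bind next to the CCAAT factor NF-Y. The CCAAT box, on either strand, stood in a window of 23 of 31 members (74.2%) against 39.7% of 27305 genes. The GC box GGGCGG stood in 29 of 31 members (93.5%) against 48.3% of all genes, and the E-box CACGTG in 5 of 31 (16.1%) against 8.77%. The sterol regulatory element, searched as TCACNCCAC, was met in 1 member (3.23%) against 1.39%. Of the 19 matched members that were higher in HaCaT-HRAS, 17 held the CCAAT box, 17 the GC box, 4 the E-box and 0 the sterol regulatory element, and of the other 12 these were 6, 12, 1 and 1. These are descriptions of letters in these windows, and no match says only that the letters are not in the window. A gene with several windows was counted once. For the 4 matched members with the highest change in HaCaT-HRAS, the window with the most matches follows 5′ to 3′, with CCAAT (or its reverse complement ATTGG) and CACGTG in capitals.
HMGCS1 promoter, chr5:43313363-43313662 (minus strand): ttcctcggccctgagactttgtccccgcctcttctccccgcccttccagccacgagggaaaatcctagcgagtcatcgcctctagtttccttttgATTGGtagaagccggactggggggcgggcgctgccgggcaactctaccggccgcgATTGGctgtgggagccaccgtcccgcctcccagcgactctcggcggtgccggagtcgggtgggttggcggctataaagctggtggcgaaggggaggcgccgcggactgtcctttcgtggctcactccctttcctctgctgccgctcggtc
MSMO1 promoter, chr4:165327419-165327718 (plus strand): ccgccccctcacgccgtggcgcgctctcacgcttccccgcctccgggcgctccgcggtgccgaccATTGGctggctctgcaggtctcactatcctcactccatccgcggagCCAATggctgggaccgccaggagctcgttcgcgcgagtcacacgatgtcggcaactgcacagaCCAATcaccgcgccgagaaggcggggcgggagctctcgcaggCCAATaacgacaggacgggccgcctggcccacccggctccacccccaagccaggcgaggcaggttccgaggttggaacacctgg
INSIG1 promoter, chr7:155297628-155297927 (plus strand): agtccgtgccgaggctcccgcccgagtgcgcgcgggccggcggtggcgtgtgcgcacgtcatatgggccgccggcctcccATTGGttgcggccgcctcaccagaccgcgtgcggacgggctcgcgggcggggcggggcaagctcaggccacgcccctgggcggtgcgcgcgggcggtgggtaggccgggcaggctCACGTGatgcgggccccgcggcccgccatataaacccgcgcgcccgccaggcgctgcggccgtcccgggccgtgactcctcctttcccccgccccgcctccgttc
ACSS2 promoter, chr20:34876362-34876661 (plus strand): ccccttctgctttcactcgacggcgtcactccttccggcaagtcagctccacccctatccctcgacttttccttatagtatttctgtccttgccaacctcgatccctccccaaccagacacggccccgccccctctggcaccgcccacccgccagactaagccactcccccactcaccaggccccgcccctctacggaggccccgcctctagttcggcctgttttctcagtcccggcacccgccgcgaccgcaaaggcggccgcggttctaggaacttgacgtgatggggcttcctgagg
SREBF2 promoter stretch, chr22:41832942-41833010 (plus strand): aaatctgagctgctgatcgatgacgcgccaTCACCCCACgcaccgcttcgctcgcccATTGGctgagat

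The HMGCS1 window held 2 CCAAT boxes, that of MSMO1 held 4, that of INSIG1 held 1 and an E-box, and the ACSS2 window shown held none but 3 GC boxes. The other ACSS2 window, not shown, held 1 CCAAT box. The last stretch, from the promoter of SREBF2 (the gene of the sterol-directed SREBP), is the 1 window of a member with the sterol regulatory element, upstream of the start, and it was chosen after its match was seen. The capitals there mark the element and a CCAAT box.

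The first comparison was of each construct with HaCaT-Mock under PBS. In HaCaT-HRAS, 22 of 34 members were higher and none lower at an adjusted p under 0.05 by limma, where 16.1% of all genes were called in either direction and 6.74% were called higher. The 22 were 13 of 17 sterol enzymes, 6 of 10 fatty acid enzymes and 3 of 7 genes of regulation and transport. The median change was 0.65 in the sterol branch, 0.34 in the fatty acid branch and 0.41 in the regulators, against -0.00 over all genes. On 21 members every HaCaT-HRAS array lay above every HaCaT-Mock array, where 10.4% of all genes did so. On 1 member every array lay below, a direction for which no share of all genes is given here. Within batch J, 21 members were higher and none lower. Where a count in batch J alone is given here or below, any percentage of all genes beside it is from the fit of all batches. All 22 calls held in each of the 6 fits that left out 1 array. Among alternatives, DHCR7, NSDHL, SC5D and ELOVL5 lost the call with no batch term, ELOVL5 and SCD with only these groups in the fit, and SCD in batch J alone.

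HMGCS1 had the highest change of the sterol branch. HMGCS1, the synthase that makes HMG-CoA, was at 8.88, 8.70 and 8.78 on the HaCaT-Mock arrays and at 10.57, 10.61 and 10.34 on the HaCaT-HRAS arrays. The HaCaT-HRAS arrays were all higher, by 1.87 (SE 0.12, 3.65-fold, 95% confidence interval 1.63 to 2.10, adjusted p = 3.93e-19). FDPS, which makes farnesyl diphosphate, was at 10.97 on each HaCaT-Mock array and at 11.93, 11.82 and 11.80 in HaCaT-HRAS. Its groups did not overlap, with a change of 0.96 (SE 0.068, 1.95-fold, adjusted p = 7.66e-17). IDI1, the isopentenyl diphosphate isomerase, was at 9.97, 9.90 and 10.12 against 11.16, 11.14 and 10.95, again without overlap. It changed by 1.23 (SE 0.11) on the probe set used, of mean level 10.31, but its probe sets disagreed. The others gave 1.19 (mean level 10.25), -0.24 (6.35) and -0.29 (5.81). The probe sets of HMGCS1 gave 1.87 to 2.02. SQLE, the squalene epoxidase, rose by 1.03 (SE 0.13, adjusted p = 2.17e-08), from 9.82, 9.71 and 9.40 to 10.72, 10.75 and 10.75.

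The later steps, which turn lanosterol into cholesterol, were also higher in HaCaT-HRAS. MSMO1, the methylsterol monooxygenase, was at 10.23, 10.14 and 10.41 in HaCaT-Mock and at 11.43, 11.47 and 11.10 in HaCaT-HRAS, a change of 1.27 (SE 0.094, 2.41-fold). EBP, the sterol isomerase, was at 10.30, 10.25 and 10.35 against 11.13, 11.09 and 11.31, a change of 0.86 (SE 0.069). For both genes the lowest HaCaT-HRAS array was above the highest HaCaT-Mock array. HSD17B7, a ketosteroid reductase of the same route, was at 8.84, 8.77 and 8.95 against 9.61, 9.58 and 9.47, and changed by 0.82 (SE 0.082, adjusted p = 1.05e-11). The smaller changes of the branch that passed were those of ACAT2 (0.73), SC5D (0.65), NSDHL (0.55), TM7SF2 (0.52), DHCR7 (0.51) and LSS (0.47). The members of the branch that did not pass on the probe set used were MVD (0.20), MVK (0.16), GGPS1 (0.07) and PMVK (-0.02). Other probe sets of MVK gave 0.31 (SE 0.075), 0.38 (SE 0.11) and -0.03 (SE 0.11). MVK, PMVK and MVD are the kinases and the decarboxylase between mevalonate and isopentenyl diphosphate, and GGPS1 leads off the sterol route to geranylgeranyl diphosphate.

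In the fatty acid branch, ACSS2 had the highest change. ACSS2, which makes acetyl-CoA from acetate, was at 7.75, 7.77 and 7.80 in HaCaT-Mock and at 9.14, 9.09 and 9.89 in HaCaT-HRAS. The batch M array of HaCaT-HRAS was the highest, and the change of 1.49 (SE 0.13, 2.81-fold) was 1.35 in batch J alone, called in both. FASN, the fatty acid synthase, was at 8.34, 8.21 and 8.49 against 9.0, 8.94 and 9.79, a change of 0.76 (SE 0.11) that was 0.70 in batch J alone. ACLY, the ATP citrate lyase, was at 10.76, 10.79 and 10.64 against 11.27, 11.23 and 11.53, a change of 0.54 (SE 0.061). ELOVL6, which elongates palmitate, was at 8.78, 8.64 and 9.04 against 9.20, 9.21 and 9.09. Its highest HaCaT-Mock array lay just under its lowest HaCaT-HRAS array, with a change of 0.46 (SE 0.073, adjusted p = 1.68e-06). SCD, the stearoyl-CoA desaturase, rose by 0.38 (SE 0.097, adjusted p = 0.00274) and ELOVL5, an elongase of polyunsaturated chains, by 0.29 (SE 0.06). The remaining members did not pass, namely ME1 (0.10), AACS (-0.03), ACACA (-0.08) and FADS2 (-0.24). Probe sets of ELOVL5 ranged from -0.13 to 0.29 and those of FADS2 from -0.24 to 0.36.

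Of the genes of regulation and transport 3 passed and 4 did not. INSIG1, which retains SCAP and is itself an SREBP target, was at 10.25, 10.19 and 10.00 in HaCaT-Mock and at 11.68, 11.70 and 11.40 in HaCaT-HRAS, a change of 1.55 (SE 0.14, 2.94-fold, adjusted p = 3.79e-13). LPIN1, a phosphatidate phosphatase that also acts on SREBP in the nucleus, was at 9.26, 9.05 and 9.42 against 10.23, 10.26 and 9.91, a change of 1.01 (SE 0.081). The groups of both genes were separate. STARD4, a sterol carrier, changed by 0.77 (SE 0.13, adjusted p = 9.97e-06). INSIG2 (0.41, adjusted p = 0.0706), SREBF2 (0.11), SCAP (-0.17) and SREBF1 (-0.24, adjusted p = 0.157, interval -0.46 to -0.02) did not pass, and probe sets of SREBF1 ranged from -0.24 to 0.08. SREBF1 encodes the SREBP that directs mainly fatty acid synthesis, and SREBF2 the one that directs mainly sterol synthesis.

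**Figure D1:**
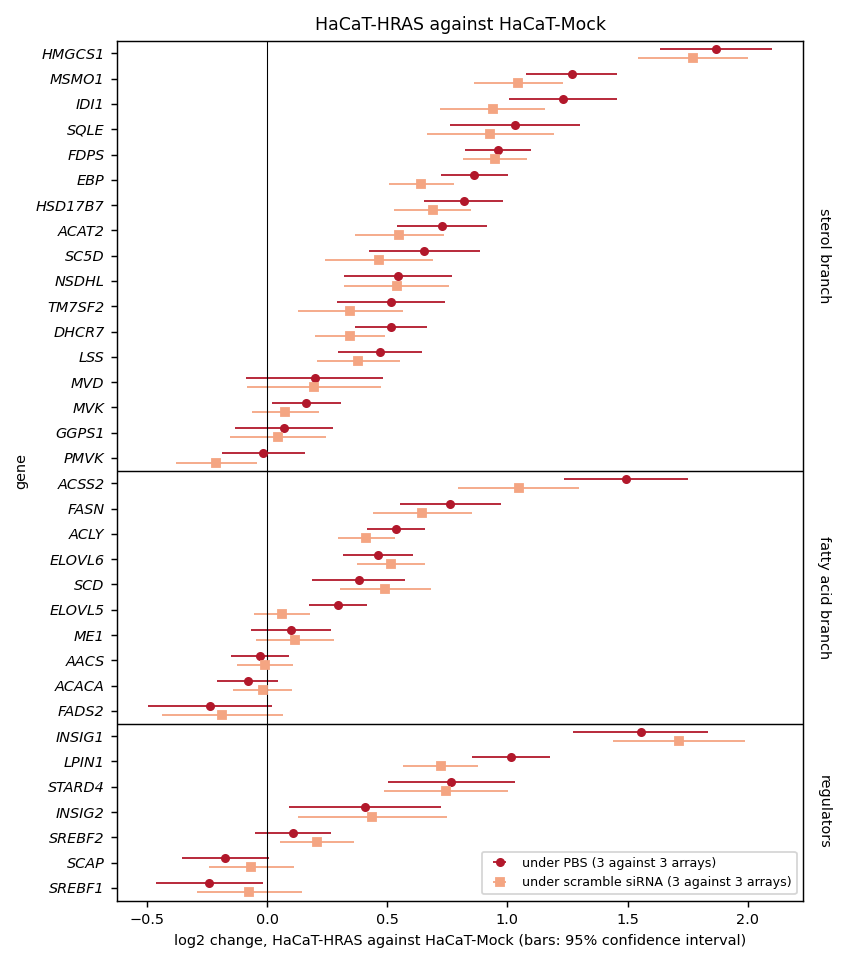
Change of each of the 34 members in HaCaT-HRAS against HaCaT-Mock (x axis, log2 difference; y axis, genes by branch), under PBS (circles) and under scramble siRNA (squares), with 95% confidence intervals, 3 arrays against 3 in each. HMGCS1 lies furthest to the right at 1.87 under PBS and 1.77 under scramble siRNA. Under PBS MVK lies at 0.16, GGPS1 at 0.07 and SREBF1 at -0.24.

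The other genes of the 2 pathways gave fewer calls and in both directions. Of 22 other sterol genes 8 were higher and 2 lower in HaCaT-HRAS, and of 29 other fatty acid genes 6 were higher and 2 lower. The rise was 1.29 (SE 0.12, adjusted p = 7.29e-13) for ABCA1, which exports cholesterol, 0.89 (SE 0.096) for NPC1, which moves it out of lysosomes, and 0.50 (SE 0.071) for SOAT1, which esterifies it. NR1H3, the oxysterol receptor LXR alpha, fell (-0.55, SE 0.12), as did the desaturase FADS3 (-0.51) and MBTPS1 (-0.22), the protease that makes the first cut in SREBP.

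HaCaT-EGFR and HaCaT-PIK3CA differed less from HaCaT-Mock under PBS. In HaCaT-EGFR 1 member of 34 was higher and none lower, where 0.698% of all genes were called, and 13 members passed an unadjusted p under 0.05. That member was INSIG1, at 10.85 and 11.12 on the 2 HaCaT-EGFR arrays against 10.00 to 10.25 in HaCaT-Mock, a change of 0.81 (SE 0.16, adjusted p = 0.00189). Both arrays were above the HaCaT-Mock arrays, but in batch J alone the change of 0.76 had an adjusted p of 0.0887, and the call was also lost without HaCaT-EGFR PBS replicate 2, with no batch term and with only these groups in the fit. With array weights 11 members passed, beside 1361 of 19775 genes, and 7 did without the 3 arrays of low weight, beside 616 genes. In HaCaT-PIK3CA 0 members passed by limma, where 0.162% of all genes did, 6 members had an unadjusted p under 0.05, and limma with array weights called 0. HMGCS1 was at 9.06 and 9.07 in HaCaT-EGFR and at 9.08, 9.12 and 8.56 in HaCaT-PIK3CA, close to HaCaT-Mock.

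Under scramble siRNA the lines were compared again on other arrays. In HaCaT-HRAS 22 members were higher and none lower, where 14.9% of all genes were called and 6.96% were called higher. They were 13 sterol enzymes, 5 fatty acid enzymes and 4 regulators, with a median change of 0.45 over the 34 members. HMGCS1 changed by 1.77, INSIG1 by 1.71, ACSS2 by 1.05, MSMO1 by 1.05, FDPS by 0.95, IDI1 by 0.94 and SQLE by 0.93. ELOVL5 was at 0.06 and did not pass, and INSIG2 passed at 0.44 (adjusted p = 0.0438) but lost the call in each of 6 fits without 1 array. In HaCaT-EGFR 4 members were higher and none lower, where 2.38% of all genes were called: INSIG1 (0.72, SE 0.14), SREBF1 (0.54, SE 0.11), SCD (0.47, SE 0.095) and TM7SF2 (0.41, SE 0.11). Batch J alone gave 0 calls, and in the fit of all batches 7 had an unadjusted p under 0.05. In HaCaT-PIK3CA 0 members passed by limma, where 0.0303% of all genes did, with 5 members at an unadjusted p under 0.05 and 1 call with array weights.

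Over all treatments the HaCaT-HRAS arrays kept apart on a few genes. All 23 HaCaT-HRAS arrays lay above all 22 HaCaT-Mock arrays for 5 of 34 members, HMGCS1, FDPS, HSD17B7, EBP and ELOVL6, where 0.819% of all genes separated this way. For HMGCS1 the HaCaT-Mock arrays spanned 7.98 to 9.40, HaCaT-EGFR 7.77 to 9.38, HaCaT-PIK3CA 8.18 to 9.59 and HaCaT-HRAS 9.77 to 10.70. For FDPS the HaCaT-Mock arrays spanned 10.65 to 11.24 and HaCaT-HRAS 11.55 to 11.99. IDI1, MSMO1 and SQLE were above on 22 of 23 arrays, LPIN1 on 21, and INSIG1, ACSS2 and STARD4 on 20, whereas SREBF1, SCD, SC5D, TM7SF2, ME1, GGPS1, AACS and MVD were above on 0.

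**Figure D2:**
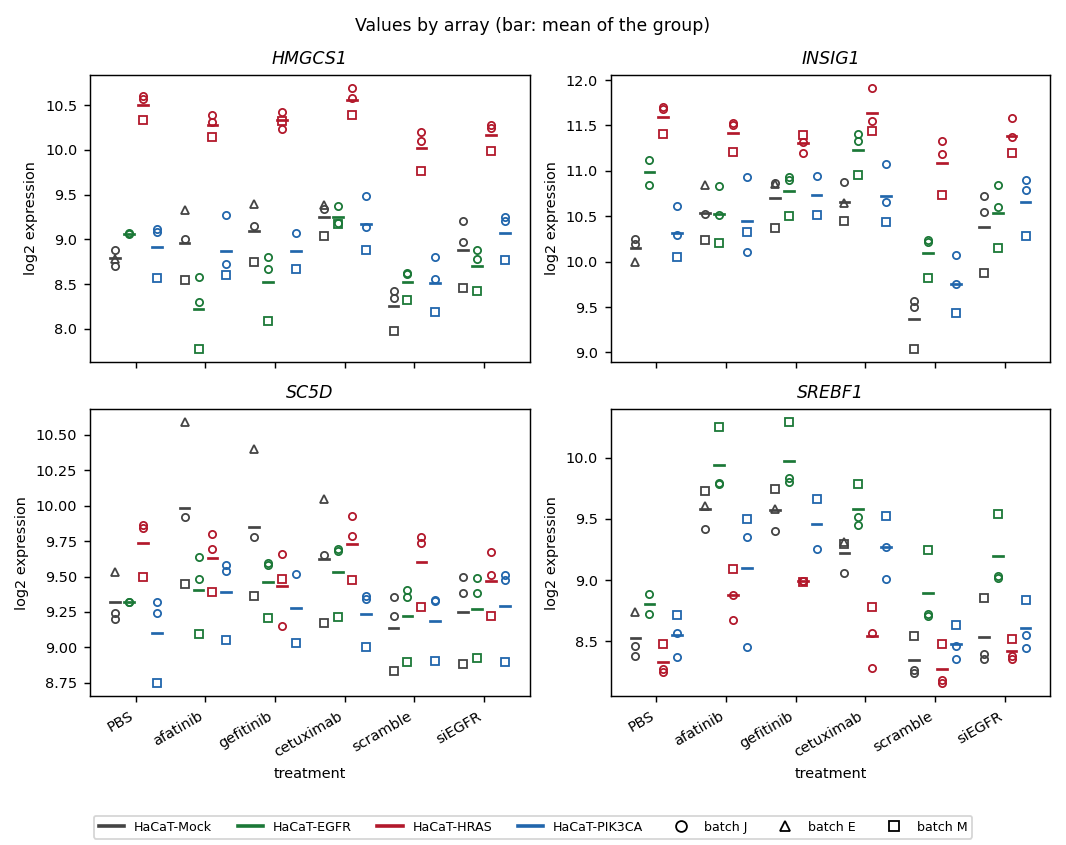
Log2 expression (y axis) of HMGCS1, INSIG1, SC5D and SREBF1 on each array by treatment (x axis), with colours for the 4 lines, symbols for the array batch and bars for group means. The HMGCS1 arrays of HaCaT-HRAS, at 9.77 to 10.70, are above every other construct array, and the SREBF1 arrays of HaCaT-Mock and HaCaT-EGFR are all higher under the inhibitors than under PBS, while in HaCaT-PIK3CA afatinib replicate 1 stays at 8.46.

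The inhibitors were next compared with PBS, as the mean of the 3 agents and averaged over the 4 lines. By limma 15 members were higher and 2 lower, where 39.2% of all genes were called and 19.8% were called higher, and the higher members were 44.1% of the 34. The higher members were 5 of the sterol branch, 6 of the fatty acid branch and 4 regulators. The median change over the members was 0.03, against -0.01 over all genes, and in batch J alone 10 members were higher and none lower. DUSP6 fell by 2.24 in the same comparison (SE 0.092). Of 22 other sterol genes 7 were higher and 7 lower, and of 29 other fatty acid genes 8 were higher and 7 lower. Among these, SCD5 rose by 0.58 (SE 0.043), the dehydratase gene HACD2 by 0.39 and ERG28 by 0.31, while PPARG, the fat cell nuclear receptor, fell by 0.83 (SE 0.055), FABP5, the epidermal fatty acid carrier, by 0.82 (SE 0.042) and NUS1 by 0.40.

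On the probe sets used, SREBF1 had the highest change of the members under the inhibitors, at 0.73 (SE 0.047, 1.66-fold, adjusted p = 3.47e-19). Its other probe set, of mean level 5.72, was at 0.21 (SE 0.084), and the values that follow are from the probe set used. In HaCaT-Mock SREBF1 was at 8.46, 8.38 and 8.74 under PBS, at 9.42, 9.60 and 9.73 under afatinib, at 9.40, 9.58 and 9.75 under gefitinib and at 9.06, 9.31 and 9.30 under cetuximab. In HaCaT-EGFR it was at 8.72 and 8.88 under PBS, at 9.79, 9.79 and 10.25 under afatinib, at 9.80, 9.83 and 10.29 under gefitinib and at 9.45, 9.52 and 9.79 under cetuximab. Every inhibitor array of these 2 lines was above every PBS array. In HaCaT-PIK3CA it was at 8.57, 8.38 and 8.72 under PBS and at 9.01 to 9.66 under the inhibitors, except for afatinib replicate 1 at 8.46. That array had DUSP6 at 9.57, near the PBS arrays of its line (9.80 to 10.16). In HaCaT-HRAS it was at 8.25, 8.27 and 8.48 under PBS, at 8.88, 8.67 and 9.09 under afatinib, at 8.99 on each gefitinib array and at 8.57, 8.28 and 8.78 under cetuximab, where the groups overlapped. The change was 0.92 in HaCaT-EGFR, 0.82 in HaCaT-Mock, 0.70 in HaCaT-PIK3CA and 0.47 in HaCaT-HRAS, and the difference between HaCaT-HRAS and HaCaT-Mock of -0.35 did not pass (adjusted p = 0.0688).

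LSS, the synthase that closes the sterol ring, changed by 0.53 (SE 0.037, 1.44-fold, adjusted p = 7.39e-18), with 0.61 in HaCaT-Mock, 0.57 in HaCaT-PIK3CA, 0.47 in HaCaT-EGFR and 0.46 in HaCaT-HRAS. In HaCaT-Mock it was at 8.78, 8.79 and 9.06 under PBS and at 9.29 to 9.74 on the 9 inhibitor arrays, and in HaCaT-HRAS at 9.30, 9.32 and 9.26 under PBS and at 9.57 to 9.81 on the inhibitor arrays, with no overlap in either line. TM7SF2, a sterol reductase, rose by 0.40 (SE 0.047), SC5D, a sterol desaturase, by 0.26 (SE 0.048), MVD by 0.20 and MVK by 0.11. The other sterol enzymes did not pass on the probe sets used. HMGCS1 (0.03, interval -0.06 to 0.13), FDPS (0.01, interval -0.05 to 0.06) and IDI1 (-0.00, interval -0.10 to 0.09) had intervals that held no average change beyond 0.13 in size. However, another probe set gave -0.16 for HMGCS1 and 0.22 for IDI1. GGPS1 was at 0.03 on the probe set used and at 0.24 (SE 0.046) on its other. For HMGCS1 the average joined unlike lines, with a response that differed from that of HaCaT-Mock by -0.719 in HaCaT-EGFR and -0.559 in HaCaT-HRAS. In the fatty acid branch SCD rose by 0.40 (SE 0.041), ACSS2 by 0.35 (SE 0.054), ME1, the malic enzyme that supplies NADPH, by 0.35 (SE 0.035), ACLY by 0.13 and ACACA by 0.11, and ELOVL6 fell by 0.08. FASN was called at 0.11 (adjusted p = 0.0454) and SCAP at -0.09 (adjusted p = 0.0477), and these calls were kept in 24 and 15 of the 46 fits without 1 array. INSIG1 rose by 0.20, LPIN1 by 0.13 and SREBF2 by 0.10. Probe sets disagreed in sign for ACACA, where the other was at -0.15 (SE 0.035), and for LPIN1, where they went down to -0.02. The study's own rule for choosing a probe set turned the direction of MVK (to -0.015) and SREBF2 (to -0.031).

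By line, the inhibitors raised 13 members and lowered 1 in HaCaT-Mock (28.7% of all genes called), raised 10 in HaCaT-PIK3CA (20.3%), raised 7 and lowered 4 in HaCaT-EGFR (26.4%) and raised 4 in HaCaT-HRAS (6.01%). The 4 members of HaCaT-HRAS were SREBF1 (0.47), LSS (0.46), ACSS2 (0.40) and ME1 (0.21). In HaCaT-Mock SC5D (0.65), TM7SF2 (0.62), INSIG1 (0.62), SCD (0.54), ME1 (0.47) and HMGCS1 (0.45) rose beside SREBF1 and LSS, and ELOVL6 fell (-0.16). In HaCaT-PIK3CA ME1 (0.45), ACSS2 (0.44), SCD (0.41), TM7SF2 (0.35), INSIG1 (0.34) and MVD (0.32) rose beside SREBF1 and LSS. In HaCaT-EGFR TM7SF2 (0.59), SCD (0.49), FADS2 (0.35), SC5D (0.30) and ME1 (0.27) rose beside SREBF1 and LSS, while ACAT2 (-0.27), HSD17B7 (-0.21), DHCR7 (-0.21) and EBP (-0.20) fell. The DHCR7 call was lost in batch J alone, with batch as a random block, by the probe set rule of the study and with no batch term, where the change was 0.080. In batch J alone the calls were 8 in HaCaT-Mock, 4 in HaCaT-PIK3CA, 7 in HaCaT-EGFR and 0 in HaCaT-HRAS. No share of all genes is given here for batch J alone, so a loss of calls over all genes is not set apart. Without the 3 arrays of low weight 14 were raised and 2 lowered in HaCaT-Mock (6625 of 19775 genes called), 12 and 2 in HaCaT-PIK3CA (5709), 9 and 8 in HaCaT-EGFR (6277) and 6 and 0 in HaCaT-HRAS (1657), and on average 15 and 2 (8380).

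**Figure D3:**
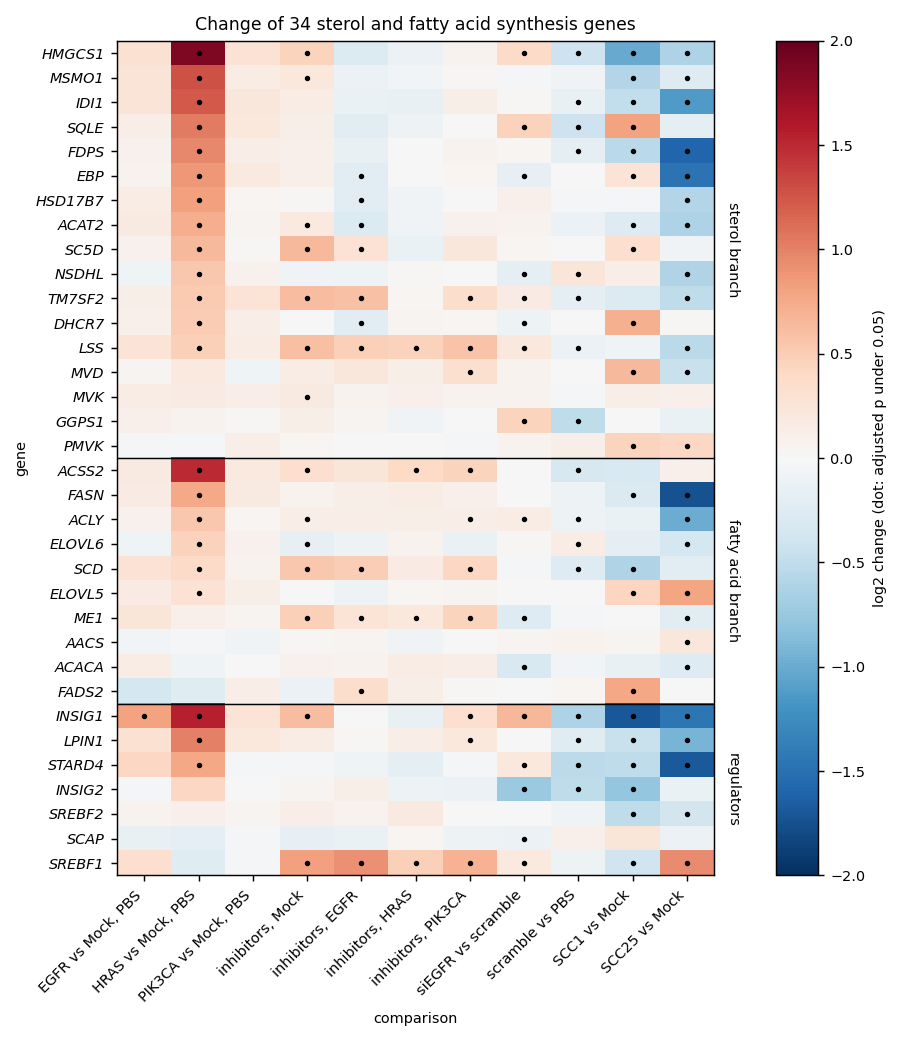
Log2 change (colour) of the 34 members (rows, by branch) in 11 comparisons (columns), with a dot where the adjusted p was under 0.05. The HaCaT-HRAS column is red through 22 members, the 4 inhibitor columns share SREBF1, LSS and ME1, and the siEGFR column has INSIG2 in blue at -0.75.

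Whether a construct changed the inhibitor response was tested as the difference of its response from that of HaCaT-Mock. In HaCaT-HRAS 5 members differed, all with a lower response, where 9.53% of all genes differed. For SC5D the response was lower by 0.79 (a difference of -0.785, SE 0.130, adjusted p = 1.87e-05). SC5D was at 9.24, 9.20 and 9.53 under PBS in HaCaT-Mock and at 9.92, 10.59 and 9.45 under afatinib, 9.78, 10.40 and 9.36 under gefitinib and 9.65, 10.05 and 9.17 under cetuximab, where the last array of each inhibitor was from batch M and the one before it from batch E. In HaCaT-HRAS it was at 9.84, 9.87 and 9.50 under PBS and between 9.15 and 9.93 under the inhibitors, so the groups overlapped there. The difference was -0.750 in batch J alone (adjusted p = 0.00122). The differences of INSIG1 (-0.762), TM7SF2 (-0.578), HMGCS1 (-0.559) and SCD (-0.382) passed in all batches and not in batch J alone, where they were -0.720, -0.534, -0.515 and -0.406. With no batch term TM7SF2 was the 1 of the 5 that passed, and without the 3 arrays of low weight 6 members had a lower and 1 a higher response, beside 2773 genes. TM7SF2 was at 6.01, 5.93 and 6.0 under PBS and 6.70, 6.79 and 7.04 under afatinib in HaCaT-Mock, and SCD at 12.34, 12.34 and 12.22 against 12.90, 12.90 and 12.84, with no overlap. In HaCaT-EGFR 1 member differed, HMGCS1 at -0.719 (SE 0.143, adjusted p = 0.025), where 0.0708% of all genes did and 11 members had an unadjusted p under 0.05. That call was kept in 19 of 23 fits without 1 array and lost in batch J alone (-0.616, adjusted p = 0.787), with no batch term and with the replicate block or batch as a random block, while without the 3 arrays of low weight 4 members differed, beside 117 genes. In HaCaT-PIK3CA 0 members passed by limma, where 0.142% of all genes did, with 3 at an unadjusted p under 0.05 and 1 with array weights.

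In HaCaT-EGFR the agents gave HMGCS1 changes of opposite sign. HMGCS1 was at 8.58, 8.30 and 7.77 under afatinib, at 8.81, 8.67 and 8.08 under gefitinib and at 9.38, 9.19 and 9.17 under cetuximab, against 9.06 and 9.07 under PBS. All afatinib and gefitinib arrays were below the PBS arrays and all cetuximab arrays above them. Against PBS the changes were -0.71 (adjusted p = 1.12e-05) for afatinib, where 26.7% of all genes were called, -0.41 (adjusted p = 0.0114) for gefitinib, where 24.7% were, and 0.31 (adjusted p = 0.101) for cetuximab, where 13.8% were. In the same order FDPS changed by -0.43, -0.20 and 0.20 and ACAT2 by -0.56, -0.37 and 0.12, with the cetuximab values not passing. ACLY changed by -0.11, 0.08 and 0.44, and only the cetuximab value passed (adjusted p = 1.9e-06). SREBF1 rose under each agent, by 1.03, 1.06 and 0.67. Afatinib was used at 10 nM and the others at 100 nM, so its values stand beside theirs without a comparison. In HaCaT-Mock HMGCS1 was at 9.0, 9.33 and 8.54 under afatinib, at 9.15, 9.40 and 8.75 under gefitinib and at 9.34, 9.39 and 9.03 under cetuximab, against 8.70 to 8.88 under PBS. The batch M array was below the PBS arrays under afatinib and within their range under gefitinib, and the other inhibitor arrays were above them.

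Gefitinib and cetuximab, both at 100 nM, were compared directly in each line, a comparison added after the data were seen. They differ in kind, the first being a small kinase inhibitor and the second an antibody. In HaCaT-EGFR 9 members were lower and 1 higher under gefitinib than under cetuximab, where 3.38% of all genes were called. The lower ones were 7 sterol enzymes, HMGCS1 (-0.73, SE 0.11, adjusted p = 3.07e-05), MSMO1 (-0.52), ACAT2 (-0.49), FDPS (-0.41), IDI1 (-0.38), EBP (-0.34) and HSD17B7 (-0.27), with ACLY (-0.36) and ME1 (-0.28), and SREBF1 was higher (0.39). Of these, HMGCS1, MSMO1, ACAT2, FDPS, EBP and ACLY kept the call in each of the 6 fits without 1 array, in which 6 members passed. In batch J alone MSMO1 was the 1 member that passed, beside 52 genes, and HMGCS1 stood at -0.54 (adjusted p = 0.116). With no batch term 1 member passed (107 genes of 19775), without the 3 arrays of low weight 16 did (1716 genes) and with array weights 23 did (2941 genes). SCD (0.07, interval -0.12 to 0.26), TM7SF2 (0.05, interval -0.17 to 0.27) and GGPS1 (-0.01, interval -0.21 to 0.19) did not differ beyond those intervals. In HaCaT-Mock 0 members passed by limma (0.314% of all genes, 1 member at an unadjusted p under 0.05), and in HaCaT-PIK3CA likewise 0 (0% of all genes, 1 member unadjusted). In HaCaT-HRAS 4 members were higher and 2 lower (7.73% of all genes), and 0 passed without the 3 arrays of low weight, of which 2 were gefitinib arrays of that line. Leaving out 1 array of that comparison gave from 0 members (without gefitinib replicate 1, cetuximab replicate 2 or cetuximab replicate 3) to 17 (without gefitinib replicate 3), beside 2 to 5090 genes. Replicate 1 of these had SQLE at 9.57 against 10.62 and 10.87 on the others, and a difference of 3.50 between the 3′ and 5′ probe sets of ACTB, and the part of RNA quality in these values was not tested. Over the 4 lines, 34 members were compared in each, and p-values were adjusted over all genes within a line.

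**Figure D4:**
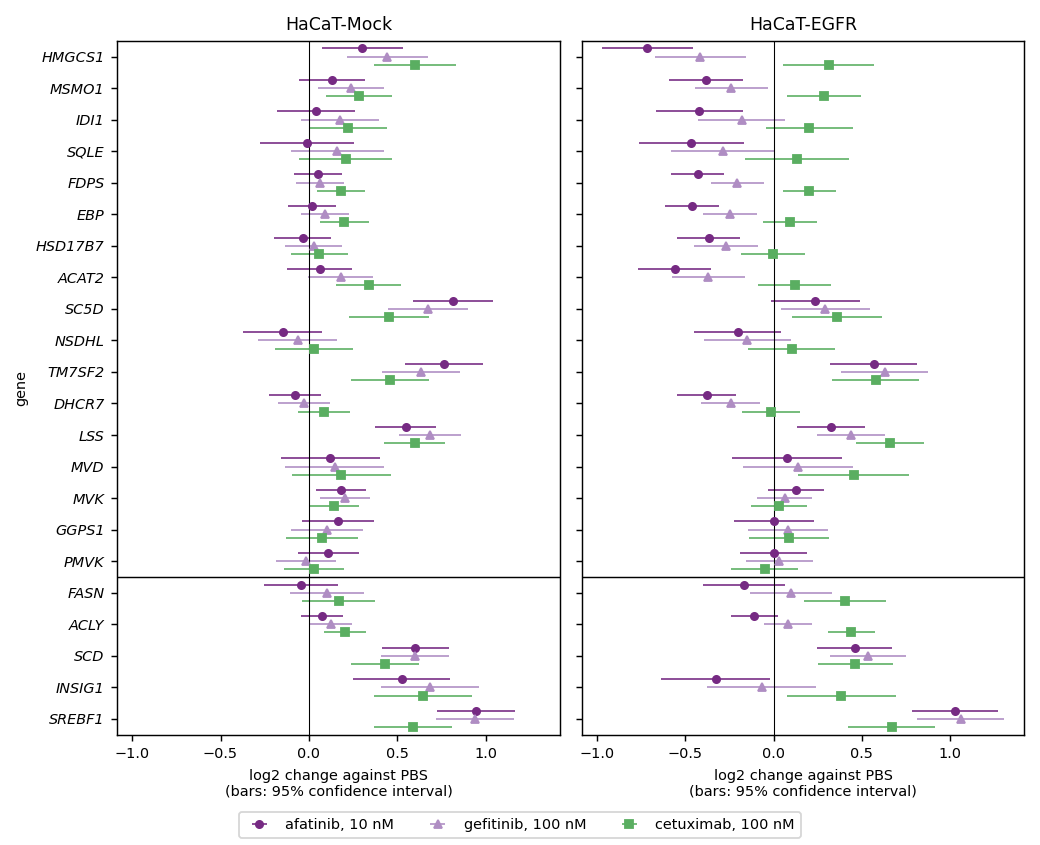
Log2 change against PBS (x axis, with 95% confidence intervals) of the 17 sterol enzymes and of FASN, ACLY, SCD, INSIG1 and SREBF1 (y axis) for each inhibitor in HaCaT-Mock (left) and HaCaT-EGFR (right). In HaCaT-EGFR the HMGCS1 points run from -0.71 under afatinib to 0.31 under cetuximab, while the SREBF1 points of both lines are all to the right of 0.

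The siRNA against EGFR was compared with scramble siRNA, averaged over the 4 lines. By limma 9 members were higher and 7 lower, where 28.4% of all genes were called, and the median over the members was 0.03. The sterol branch had 5 higher and 3 lower, the fatty acid branch 1 and 2, and the regulators 3 and 2. INSIG1 rose by 0.66 (SE 0.069, adjusted p = 1.2e-11) and INSIG2, its relative that is not driven by SREBP, fell by 0.75 (SE 0.077, adjusted p = 1.04e-11). INSIG2 in HaCaT-Mock was at 7.90, 7.77 and 7.37 under scramble and at 7.22, 6.83 and 6.63 under siEGFR. In HaCaT-EGFR it was at 7.91, 7.93 and 7.35 against 7.22, 7.24 and 6.57, and in HaCaT-HRAS at 8.25, 8.28 and 7.82 against 7.61, 7.42 and 6.99. In HaCaT-PIK3CA it was at 7.86, 7.84 and 7.34 against 7.19, 7.11 and 6.60. The siEGFR arrays were all lower than the scramble arrays within each line, with changes of -0.79 in HaCaT-Mock, -0.78 in HaCaT-HRAS and -0.71 in both other lines.

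INSIG1 in HaCaT-Mock was at 9.57, 9.50 and 9.04 under scramble and at 10.72, 10.55 and 9.88 under siEGFR. In HaCaT-HRAS it was at 11.33, 11.19 and 10.73 against 11.58, 11.37 and 11.20, where the groups overlapped. Its change was 1.01 in HaCaT-Mock and 0.90 in HaCaT-PIK3CA, and it was 0.44 in HaCaT-EGFR and 0.30 in HaCaT-HRAS. The difference of the siEGFR response from that of HaCaT-Mock passed for 0 members in HaCaT-EGFR (0.0101% of all genes, 2 members at an unadjusted p under 0.05), 0 in HaCaT-HRAS (0.0253%, 2 members) and 0 in HaCaT-PIK3CA (0%, 0 members) by limma, the tool run for it, and for INSIG1 in HaCaT-HRAS it was -0.71 (adjusted p = 0.381). HMGCS1 rose by 0.38 (SE 0.057), SQLE by 0.46 (SE 0.066) and GGPS1 by 0.44 (SE 0.05). SQLE in HaCaT-Mock was at 9.41, 9.37 and 9.31 under scramble and at 10.01, 9.77 and 9.95 under siEGFR, without overlap. ACACA, the acetyl-CoA carboxylase, fell by 0.30 (SE 0.031, adjusted p = 7.85e-12), between -0.26 and -0.32 in the lines, but its other probe set was at 0.04 (SE 0.040). ME1 fell by 0.25 (SE 0.041), and its other probe sets were at -0.73 (SE 0.064) and -0.14 (SE 0.086). SREBF1 rose by 0.19 (adjusted p = 0.00491), a call lost in batch J alone and with no batch term, and its other probe set was at -0.08. Of 22 other sterol genes 6 were higher and 7 lower, and of 29 other fatty acid genes 5 and 7.

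Members differed between the scramble siRNA arrays and the PBS arrays, so the siEGFR values were read against scramble alone. The scramble arrays are not labelled with PBS, so siRNA, transfection and handling cannot be told apart here. Averaged over the lines, 2 members were higher and 14 lower under scramble than under PBS, where 27.1% of all genes were called and 13.5% were called lower. INSIG1 fell by 0.62 (adjusted p = 5.89e-10), STARD4 by 0.52, GGPS1 by 0.51, INSIG2 by 0.51, HMGCS1 by 0.42 and SQLE by 0.42, and NSDHL (0.23) and ELOVL6 (0.14) rose. GGPS1 in HaCaT-Mock was at 9.37, 9.28 and 8.96 under PBS, at 8.79, 8.84 and 8.63 under scramble and at 9.30, 9.14 and 9.14 under siEGFR, so the siEGFR arrays lay within the range of the PBS arrays. The arrays of scramble with PBS differed from PBS alone for 1 member that was higher, SREBF1 (0.22, adjusted p = 0.0454), and 2 that were lower, HMGCS1 (-0.29) and GGPS1 (-0.22), where 5.92% of all genes were called. Over 3 lines, without the HaCaT-Mock array that stood apart, SREBF1 was at 0.05 (adjusted p = 0.824), and 12 members were lower and none higher, beside 1203 of 19775 genes, with HMGCS1 at -0.52 and GGPS1 at -0.32. Other sterol genes gave 4 higher and 5 lower under scramble, and other fatty acid genes 3 and 5.

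The siEGFR response and the inhibitor response, which have separate controls, differed for 16 members, 6 with a higher and 10 with a lower siEGFR response, where 26.8% of all genes differed. INSIG2 (-0.74), ME1 (-0.60), SREBF1 (-0.54, adjusted p = 2.2e-08), SCD (-0.42), ACSS2 (-0.35) and LSS (-0.32) were among those with a lower siEGFR response. SQLE (0.51), INSIG1 (0.46), GGPS1 (0.41), HMGCS1 (0.34) and STARD4 (0.29) had a higher siEGFR response. The siEGFR arrays and their controls were transfected and these inhibitor arrays were not, and inhibitor values in transfected cells follow. The EGFR transcript fell under siEGFR by 1.92, while DUSP6 fell by 1.07 there and by 2.24 under the inhibitors.

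Among cells that had scramble siRNA, the inhibitors raised 13 members and lowered none, where 19.3% of all genes were called. They were 8 sterol enzymes, 3 fatty acid enzymes and 2 regulators, led by LSS (0.45, adjusted p = 8.65e-09), SREBF1 (0.43, adjusted p = 3.62e-06), SC5D (0.41), HMGCS1 (0.32), INSIG1 (0.31), MSMO1 (0.26) and SCD (0.26). Of the PBS arrays here, the 1 array of HaCaT-Mock had DUSP6 at 8.13, against 9.49 to 10.18 on the HaCaT-Mock PBS arrays and 9.46 to 10.91 on the arrays of scramble with PBS in the other lines. Its INSIG1 was 11.11, its SREBF1 9.20, its SCD 13.00 and its ME1 10.39, which for SREBF1 is within the range of the HaCaT-Mock cetuximab arrays. Without that array, over 3 lines, 15 members were higher and none lower, with SREBF1 at 0.54, INSIG1 at 0.53, LSS at 0.51 and SCD at 0.41. The 19.3% of all genes is for the 4 lines, and no share is given here for the 3 lines. In transfected cells the inhibitor changes of SREBF1, LSS and SCD thus stood at 0.43, 0.45 and 0.26 over 4 lines. Over 3 lines they stood at 0.54, 0.51 and 0.41. The siEGFR changes of these genes were 0.19, 0.20 and -0.02, and the differences from the inhibitor changes were not tested. Arrays of scramble with an inhibitor were from batch J in HaCaT-Mock and batch E in the other lines. The siEGFR arrays and their scramble controls were from batches J and M, and the part of batch here was not tested.

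The carcinoma lines differed from HaCaT-Mock under PBS and from each other. SCC1, SCC25 and FaDu are lines from head and neck squamous cell carcinomas, and each had few arrays. In SCC1 8 members were higher and 13 lower, where 37.4% of all genes were called, and in batch J alone 5 and 8. In SCC25 4 were higher and 20 lower, where 42.2% of all genes were called and 22.7% were called lower, and in batch J alone 4 and 15. The 20 were 11 sterol enzymes, 5 fatty acid enzymes and 4 regulators, and the median change was -0.31. FASN was at 8.0 and 8.61 in SCC1, at 6.54 and 7.18 in SCC25 and at 10.02 in FaDu, and the 1 array of parental HaCaT cells had 8.33. Both SCC25 arrays were the lowest of these, and the change from HaCaT-Mock was -1.73 (adjusted p = 2.18e-19). FDPS (-1.59, adjusted p = 9.63e-26), EBP (-1.47), IDI1 (-1.13), ACLY (-0.99), STARD4 (-1.68), INSIG1 (-1.44) and LPIN1 (-0.93) were also lower in SCC25, and SREBF1 (0.94), ELOVL5 (0.79), PMVK (0.42) and AACS (0.23) were higher. By the probe set rule of the study ELOVL5 was at -0.10 there. In SCC1 INSIG1 (-1.70), HMGCS1 (-1.0), INSIG2 (-0.77), SCD (-0.61), MSMO1 (-0.58) and FDPS (-0.54) were lower, and SQLE (0.81), FADS2 (0.78), DHCR7 (0.71) and MVD (0.65) higher. Of the other sterol genes 12 were higher and 8 lower in SCC1 and 8 and 4 in SCC25, and of the other fatty acid genes 10 and 10 in SCC1 and 9 and 9 in SCC25.

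SCC1 and SCC25 were compared with each other, and 17 members were higher in SCC1 and 8 lower, where 42.5% of all genes were called and 23.3% were called higher. EBP was at 10.46 and 10.79 in SCC1 and at 8.76 and 9.0 in SCC25, a difference of 1.74 (adjusted p = 3.29e-26) with no overlap. FDPS was at 10.43 and 10.21 against 9.39 and 9.16, a difference of 1.05. FASN differed by 1.45, STARD4 by 1.17, MVD by 1.09 and SQLE by 1.01. SREBF1 was at 8.0 and 8.48 in SCC1 and at 9.27 and 9.89 in SCC25, the opposite order, with a difference of -1.34 (adjusted p = 8.1e-13). Batch J alone gave 14 higher and 4 lower. Of the other sterol genes 7 were higher and 7 lower, and of the other fatty acid genes 9 and 9. SQLE was at 11.74 on the FaDu array and at 10.65 on the FaDu array under PBS, against 10.59 and 10.46 in SCC1 and 9.56 and 9.46 in SCC25. HMGCS1 was at 9.82 and 10.96 on the same FaDu arrays, 7.87 and 7.24 in SCC1, 8.37 and 7.50 in SCC25 and 7.93 in parental HaCaT cells. The FaDu array under PBS was the only array of batch P and gives values with no test, so culture and batch cannot be told apart there.

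**Figure D5:**
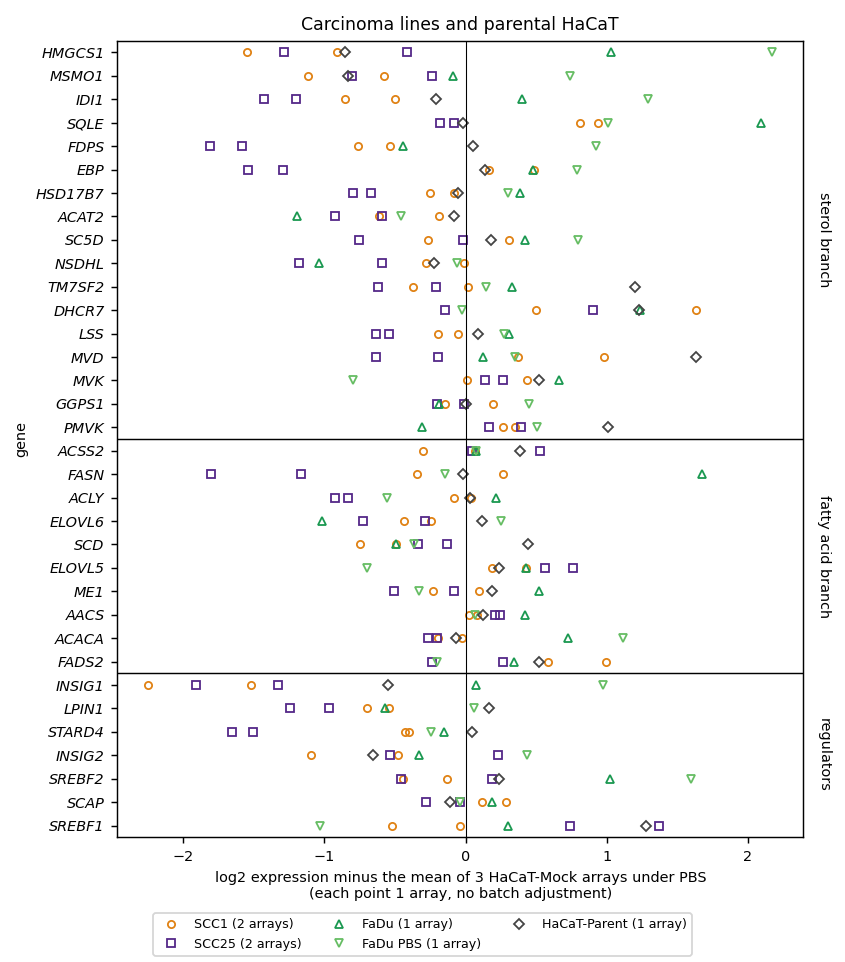
Log2 expression of the 34 members (y axis) on each array of SCC1, SCC25, FaDu and parental HaCaT cells, as the difference from the mean of the 3 HaCaT-Mock arrays under PBS (x axis), without batch adjustment. Both SCC25 arrays lie left of both SCC1 arrays for FDPS, EBP, FASN and STARD4, and to the right for SREBF1.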

How the data were processed

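Total RNA of 96 samples was measured on Affymetrix arrays, and group, batch and, where a label held one, replicate number came from the labels. Each probe set has a deposited log2 expression value per array (2.65 to 14.5). Per the submitters' processing notes the affy package was used, and the study's methods name frozen robust multi-array normalization and a surrogate-variable batch correction by the authors. The sources used here do not say through which of them the deposited log2 values went. The labels name the labelling kits but not which array had which. These are not counts, so precision depends on how many arrays a group had.

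Of 54675 probe sets, 41097 had 1 gene symbol in the platform annotation, 1801 had several and 11777 were not listed. Each of 19775 genes was read from its brightest probe set on average over the construct arrays, and no gene was filtered for a low value. A linear model with group means and array batch (J, E, M) as terms was fitted to the 89 construct arrays with limma 3.58.1 in R 4.3.3 (with data.table, version 1.17.8), with 47 residual degrees of freedom, and for the carcinoma lines to 95 arrays with 49. P-values are two-sided, adjusted by Benjamini-Hochberg over all genes within a comparison, and called at an adjusted p under 0.05. Single-array groups borrow the spread of the others. The fit was tested on simulated data.

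Values by array are given for the 6 sterol enzymes, 4 fatty acid enzymes and 2 regulators with the lowest adjusted p in HaCaT-HRAS against HaCaT-Mock under PBS and for members whose inhibitor response differed from that of HaCaT-Mock. Array values of SREBF1, LSS, SQLE, INSIG2 and GGPS1 were added after their values were seen. Of the other pathway genes the 3 in each direction with the lowest adjusted p are named. The members, gene lists and comparisons were chosen with earlier results of these data known. Alternatives were no batch term, batch J alone, only the groups compared, array weights, a replicate block, batch as a random block, the probe set rule of the study, genes at or above the median level (6.10), quantile normalization and leaving out each array in turn. Leaving out the 3 arrays of low weight, or the HaCaT-Mock array of scramble with PBS, was added after the data were seen. Same-numbered batch J arrays did not deviate together (median r = 0.00309 over 190 pairs of groups, 9 above 0.1), so replicate numbers pair no samples.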

Additional observations from a re-analysis of the deposited data

Results flagged for a closer look

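The inhibitor response of 6 combinations of member and line differed from that of HaCaT-Mock in the test of the difference itself (limma, adjusted over all genes). In HaCaT-HRAS the difference was -0.785 for SC5D (SE 0.130, adjusted p = 1.87e-05), -0.762 for INSIG1 (SE 0.159, adjusted p = 0.000642), -0.578 for TM7SF2 (SE 0.127, adjusted p = 0.00114), -0.559 for HMGCS1 (SE 0.132, adjusted p = 0.00279) and -0.382 for SCD (SE 0.110, adjusted p = 0.0168). In HaCaT-EGFR it was -0.719 for HMGCS1 (SE 0.143, adjusted p = 0.025). In batch J alone SC5D in HaCaT-HRAS still passed (-0.750, adjusted p = 0.00122). The values there were -0.720 for INSIG1, -0.534 for TM7SF2, -0.515 for HMGCS1 and -0.406 for SCD in HaCaT-HRAS and -0.616 for HMGCS1 in HaCaT-EGFR, with adjusted p from 0.0992 to 0.787. Each of the 6 still passed without the 3 arrays of low weight. None of those arrays is from HaCaT-EGFR or HaCaT-Mock, so for HMGCS1 in HaCaT-EGFR that fit does not check the arrays compared. With no batch term only TM7SF2 in HaCaT-HRAS passed, and HMGCS1 in HaCaT-EGFR also lost the call with the replicate block and with batch as a random block.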

How the results depend on the processing

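Of 226 called values of single members, array weights, the filter at the median level and leaving out the 3 arrays of low weight kept 226, quantile normalization 216, batch as a random block 213, the replicate block 208, the probe set rule of the study 208, only the groups compared 192 and no batch term 131, and batch J alone kept 143 of 213. The cause of these losses was not tested. The number of arrays limits the precision, and groups of 1 array borrow their spread.

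With no batch term the count of members called went from 1 to 0 in HaCaT-EGFR under PBS, from 4 to 1 there under scramble siRNA, to 5 for the inhibitors in HaCaT-Mock, 4 each in HaCaT-EGFR and HaCaT-PIK3CA, 1 in HaCaT-HRAS and 10 on average, to 0 and 1 for the response differences of HaCaT-EGFR and HaCaT-HRAS, to 10 for siEGFR, 6 for inhibitors among scramble arrays, 9 for scramble against PBS and 13 for SCC1 against HaCaT-Mock. Batch J alone gave 0 for HaCaT-EGFR under PBS and under scramble, 8, 4, 7 and 0 for the inhibitors in HaCaT-Mock, HaCaT-PIK3CA, HaCaT-EGFR and HaCaT-HRAS, 10 on average, 0 and 1 for the response differences of HaCaT-EGFR and HaCaT-HRAS and 13 for SCC1. Inhibitors among scramble arrays could not be fitted there. With only the groups compared they were 0 for HaCaT-EGFR under PBS, 2 and 3 for the inhibitors in HaCaT-HRAS and HaCaT-PIK3CA and 6 for the response difference of HaCaT-EGFR. With array weights they were 11 for HaCaT-EGFR under PBS, 1 for HaCaT-PIK3CA under scramble, 18 for the inhibitors in HaCaT-EGFR and 9, 8 and 1 for the response differences of HaCaT-EGFR, HaCaT-HRAS and HaCaT-PIK3CA. The replicate block gave 9 for the inhibitors in HaCaT-Mock and 0 for the response difference of HaCaT-EGFR, as did the random block for the latter (0). Genes at or above the median level gave 8 for the response difference of HaCaT-HRAS. Without the 3 arrays of low weight the counts were 7 and 1 for HaCaT-EGFR and HaCaT-PIK3CA under PBS, 17 for the inhibitors in HaCaT-EGFR and 4 and 1 for the response differences of HaCaT-EGFR and HaCaT-PIK3CA.

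Leaving out 1 array gave 0 to 1 for HaCaT-EGFR, 22 for HaCaT-HRAS and 0 for HaCaT-PIK3CA under PBS, and 3 to 4, 20 to 22 and 0 under scramble. For the inhibitors it gave 9 to 14 in HaCaT-Mock, 5 to 11 in HaCaT-PIK3CA, 5 to 12 in HaCaT-EGFR, 2 to 5 in HaCaT-HRAS and 13 to 17 on average. The response differences gave 0 to 1, 4 to 8 and 0, siEGFR 15 to 17, inhibitors among scramble arrays 10 to 16, scramble against PBS 15 to 17, SCC1 17 to 21, SCC25 19 to 23 and SCC1 against SCC25 18 to 23.

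Directions turned for DHCR7 under the inhibitors in HaCaT-EGFR with no batch term (0.080) and, by the probe set rule of the study, for MVK (-0.015) and SREBF2 (-0.031) under the inhibitors, ACLY under scramble (0.00128), ELOVL5 in SCC25 (-0.10) and in SCC1 against SCC25 (0.31) and FADS2 in SCC1 against SCC25 (-0.014). Without the 3 arrays of low weight ACAT2 (0.052) and SQLE (0.037) turned in gefitinib against cetuximab in HaCaT-HRAS.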
